A study of Mus musculus with 18 samples.

Results

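The genes described here are the nuclear genes that encode respiratory complexes II to V and cytochrome c, in RNA of spinal cord microglia from healthy mice and from mice with EAE (experimental autoimmune encephalomyelitis, in which immune cells attack myelin) with or without metformin. Protein-coding rows were taken by symbol: Sdha, Sdhb, Sdhc, Sdhd, Cyc1, Cycs and every symbol beginning with Uqcr, Cox4 to Cox8 or Atp5. Of 39017 genes in the table, 49 matched, and 41 had at least 180 counts summed over the 18 libraries. The 41 were 4 genes of complex II, 8 of complex III, cytochrome c itself, 14 of complex IV, 13 of complex V and Atp5s, a factor named for ATP synthase that is not a subunit of it. Just inside the minimum lay Cox4i2 with 447 counts, and just outside lay Cox7a1, a muscle form, with 172. The other genes below the minimum were Atp5l (122 counts), Atp5g2 (102), Cox8b (60), Cox7b2 (14) and Atp5a1, Uqcrc1 and Cox8c, which were listed at 0 in every library.

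All mice were female and labelled wild type, and carried Tmem119-Cre, which drives recombination in microglia, with RiboTag, a Cre-dependent epitope tag on a ribosomal protein. Of the 18 libraries, 6 came from healthy mice with control treatment, 6 from EAE mice with control treatment and 6 from EAE mice with metformin, an antidiabetic drug known to inhibit complex I. The labels name total RNA and no pull-down of tagged ribosomes, and give no age, dose or time. Nothing in them says that the libraries of a group are separate animals, and the spread behind each p-value is that between libraries, which may be technical.

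Complexes III and IV pass electrons from ubiquinol through cytochrome c to oxygen and pump protons, complex II feeds electrons from succinate into the same pool without pumping, and complex V, the ATP synthase, uses the proton gradient to make ATP. Nearly all their subunits are encoded in the nucleus and imported, while a few core subunits of complexes III to V are encoded in mitochondrial DNA. Myeloid cells are known to shift between oxidative phosphorylation and glycolysis with activation.

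Library totals were 46.2 to 58.3 M counts (M, mega). Levels below are in CPM, counts per M counts with library sizes scaled by TMM factors. The TMM factor was 1.08 to 1.2 in healthy libraries and 0.801 to 0.957 in control EAE libraries. Changes are log2 changes ± SE from an edgeR quasi-likelihood fit over 16740 genes and 18 libraries. Homeostatic microglial markers were present in every library (summed level 3360 CPM or more), and so were markers of other cells. The 8 monocyte-derived cell markers summed to 21.2 to 38.8 CPM in healthy and 181 to 407 CPM in control EAE libraries. Most of that sum was Vim, at 16.8 to 33.4 CPM in healthy and 160 to 391 CPM in control EAE libraries. Ccr2 was at 0.409 to 1.81 CPM throughout and Ly6c2 at no more than 0.861 CPM. The library labelled metformin replicate 22 stood apart from its group. Its Tmem119 level of 970 CPM and its Ms4a7 level of 0.254 CPM lay within the healthy range, its monocyte-derived cell markers summed to 23.7 CPM, and 34 of the 41 genes lay within the range of the healthy libraries, against 8 to 11 in the other metformin libraries. For the main fit, counts of calls and medians over the 41 genes with metformin are therefore given with and without it. The summed level over the 41 is given both ways too. Other values for metformin include it unless stated, among them those with other scaling or with a length trend removed. Shares of cell types and RNA per cell cannot be told apart in such bulk libraries.

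In EAE, the nuclear genes of complexes II to V rose broadly. Of the 41 genes, 33 were higher in control EAE than in healthy libraries (edgeR adjusted p under 0.05, where 31.7% of all genes tested were higher), 1 was lower (30.7% of all genes) and 7 did not pass. The median change was 0.85 on the log2 scale, against -0.003 over all genes tested. With scaling to library totals alone, which moved the median of all genes to -0.42, 24 genes were higher and 5 were lower, and Sdha, Cyc1, Uqcrc2, Atp5b and Atp5c1 turned to values below 0. Summed over the 41 genes, the level was 2299 ± 118 CPM in healthy (SD, n = 6), 3724 ± 505 CPM in control EAE and 2782 ± 267 CPM in metformin EAE libraries (2885 ± 102 CPM in 5 of them, and 2269 CPM in replicate 22). In 31 of the genes that rose, no library of the groups overlapped (20.1% of all genes tested), and the same held for the gene that fell (19.3%). For the sum, every control EAE library, from 3307 to 4609 CPM, lay above every healthy library, from 2114 to 2485 CPM.

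**Figure D1:**
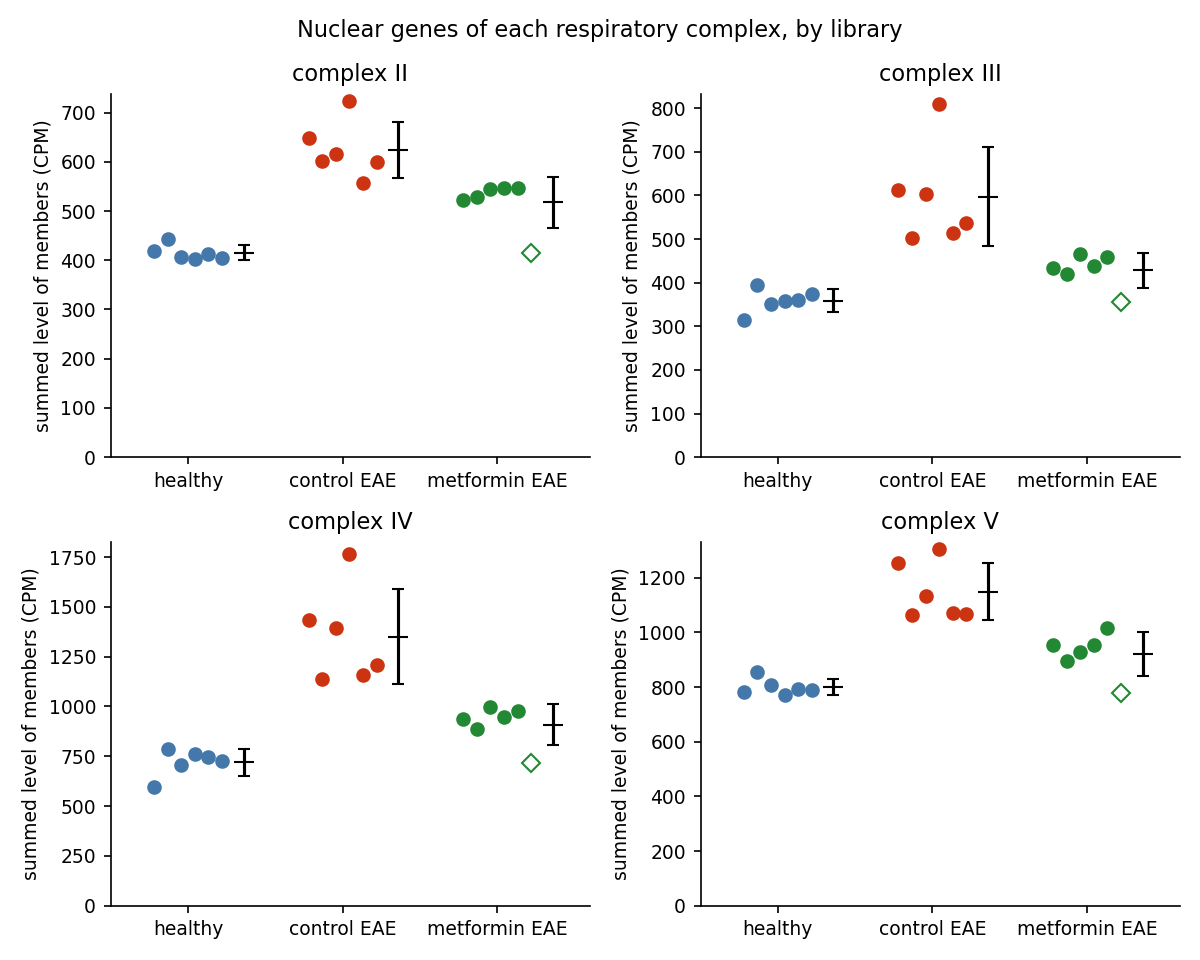
Summed level in CPM (y axis, from 0) of the member genes of complexes II, III, IV and V in each library, by group (x axis); points are libraries in the order of their replicate numbers, the bar beside them is the mean ± SD of 6 libraries, and the open diamond is the library labelled metformin replicate 22. In each panel all 6 control EAE libraries lie above all 6 healthy libraries, and the open diamond lies near the healthy libraries, at 415 CPM for complex II.

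The mean summed level rose from 415 to 624 CPM for complex II, from 359 to 597 CPM for complex III, from 720 to 1350 CPM for complex IV and from 799 to 1150 CPM for complex V. Cytochrome c was low, at 2.07 ± 0.578 CPM in healthy and 2.47 ± 0.63 CPM in control EAE libraries. Levels per kilobase of annotated exon are given to compare genes, with all exons of a gene merged. That length can exceed the longest protein-coding transcript, by unequal amounts: 4237 against 1916 bases for Atp5b and 702 against 571 for Cox6a1. The order below holds for merged exons only. Cox8a (308 ± 37.2 CPM per kb in healthy libraries) and Cox6a1 (212 ± 21.8) ranked first and second in all 3 groups, and their ranges over healthy libraries did not overlap. Atp5b followed at 94.1 ± 5.4, Cox6b1 at 87.6 ± 8.33 and Sdhd at 84.7 ± 6.23 CPM per kb, and those neighbours lay within their spread of each other. Lowest in healthy libraries were Cox4i2 (0.407 ± 0.263), Cycs (0.608 ± 0.17) and Cox7c (0.931 ± 0.251 CPM per kb), of which Cycs shares near-identical stretches with 14 other genes and Cox7c with 2 pseudogenes, so the authors' counting could split their reads.

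The sequence before the transcription start is shown for 6 members: 3 that rose (Cox6a1, Uqcrh, Atp5h), Cycs, which did not pass the test, and Atp5g1 and Atp5g3, which moved in opposite directions. The sequences are from RefSeq (GRCm38.p6), 5′ to 3′ on the gene's strand, minus in all 6, and cover up to 180 bases free of annotated exons. Capitals mark matches on either strand to GCGCANGCG, the core of the site of NRF1, a factor known for activating respiratory genes, or to CCGGAAG, the core of ETS sites such as those of GABP. Where matches on opposite strands overlap, as in Cox6a1, only the first is in capitals. Matches outside the printed stretch are not shown. They are NRF1 letters 13 bases after the start in Atp5g3, and ETS letters beginning 38 bases before it in Atp5h and 16 in Cox6a1.
Cox6a1 (chr5:115348982-115349129): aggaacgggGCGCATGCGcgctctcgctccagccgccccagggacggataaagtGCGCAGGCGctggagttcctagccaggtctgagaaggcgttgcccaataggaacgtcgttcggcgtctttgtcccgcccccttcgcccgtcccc
Uqcrh (chr4:116075072-116075251): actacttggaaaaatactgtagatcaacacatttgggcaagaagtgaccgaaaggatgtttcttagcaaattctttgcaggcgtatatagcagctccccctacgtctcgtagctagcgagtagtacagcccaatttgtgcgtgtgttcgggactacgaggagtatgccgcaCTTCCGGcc
Atp5h (chr11:115419963-115420127): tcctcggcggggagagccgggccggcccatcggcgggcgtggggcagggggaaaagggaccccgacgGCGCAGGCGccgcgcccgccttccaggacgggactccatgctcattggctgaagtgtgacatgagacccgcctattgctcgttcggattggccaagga
Cycs (chr6:50566570-50566642): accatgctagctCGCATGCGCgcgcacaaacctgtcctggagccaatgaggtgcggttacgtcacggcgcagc
Atp5g1 (chr11:96075671-96075850): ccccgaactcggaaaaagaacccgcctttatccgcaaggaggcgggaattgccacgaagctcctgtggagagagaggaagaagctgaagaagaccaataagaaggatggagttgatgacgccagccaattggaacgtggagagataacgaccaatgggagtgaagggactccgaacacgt
Atp5g3 (chr2:73911327-73911506): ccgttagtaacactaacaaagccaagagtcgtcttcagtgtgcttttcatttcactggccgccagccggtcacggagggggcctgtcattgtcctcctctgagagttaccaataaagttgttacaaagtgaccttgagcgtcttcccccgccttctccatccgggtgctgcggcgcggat

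RefSeq gave a promoter, 250 bases before to 50 after the start, for 31 of the 41 genes. The NRF1 letters were in 10 of the 31 (32.3%), against 13.7% of 11422 tested genes with a promoter and 7.03% of all 27025 genes with a promoter. The ETS letters were in 11 (35.5%), against 17.8% and 9.93%, and AAGATGGCG, the core of the YY1 site, was in 2 (6.45%), against 3.13% and 1.64%. Where matches on opposite strands overlapped, as for NRF1 in Cox6a1 and Atp5k, only the first is counted. Sdha, which did not pass the test in EAE, held 3 NRF1 matches, beginning 98, 55 and 10 bases before the start, and Cox6a1 held 2, beginning 162 and 117 bases before it. In Cycs the match began 61 bases before the start. Genes with these letters were among those that rose and among those that did not pass the test.

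Complex II oxidises succinate and is also an enzyme of the tricarboxylic acid cycle. Sdhb, its iron-sulfur subunit, was at 21.2, 24.1 and 27.5 CPM (lowest, median, highest) in healthy and at 37.1, 44.7 and 52.1 CPM in control EAE libraries, a log2 change of 0.90 ± 0.10 (edgeR adjusted p = 3.72e-07). All control EAE libraries were above all healthy ones. Sdhd, a membrane anchor, went from 94.1, 104 and 116 CPM to 159, 185 and 230 CPM (0.85 ± 0.10, edgeR adjusted p = 8.69e-07), again with no overlap. The other anchor, Sdhc, rose by 0.74. Sdha, the flavoprotein that holds the catalytic site, did not pass: its libraries ran from 148 to 185 CPM in healthy and from 172 to 191 CPM in control EAE, a log2 change of 0.17 ± 0.08 (edgeR adjusted p = 0.0653). Without healthy replicate 3 that change was 0.21 and passed (edgeR adjusted p = 0.0224), and without metformin replicate 22, which enters only through the shared fit, it was 0.17 and passed too (edgeR adjusted p = 0.046).

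All 8 genes of complex III rose in EAE, by 0.30 to 1.03 on the log2 scale, but with scaling to library totals alone Cyc1 and Uqcrc2 stood at -0.13 and -0.10. The values of core and small subunits did not overlap. Cyc1 (cytochrome c1), Uqcrc2 (a core protein) and Uqcrfs1 (the Rieske iron-sulfur protein) rose by 0.30, 0.32 and 0.51, while Uqcr10, Uqcr11, Uqcrb, Uqcrh and Uqcrq rose by 0.68 to 1.03. The core genes have 1363 to 2552 bases of annotated exon and the small ones 584 to 1831. After removal of a trend with gene length, described below, the core genes were at 0.114 to 0.283 and the small ones at 0.429 to 0.785. Cyc1 then did not pass. Uqcr10 was at 35, 41.5 and 46.2 CPM in healthy and at 64.3, 79 and 126 CPM in control EAE libraries (1.03 ± 0.14, edgeR adjusted p = 4.26e-06). Uqcr11 went from 14.6, 19.2 and 20.3 CPM to 27, 32.2 and 50.2 CPM (0.91 ± 0.13, edgeR adjusted p = 7.21e-06). Neither gene's groups overlapped, and control EAE replicate 10 was highest for both. Cycs, which carries electrons from complex III to IV, ran from 1.33 to 2.89 CPM in healthy and from 2 to 3.55 CPM in control EAE libraries, so the groups overlapped (0.26 ± 0.21, edgeR adjusted p = 0.282).

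Complex IV, cytochrome c oxidase, had the gene with the largest change of the 41. Cox6a2, the form of subunit VIa known from heart and skeletal muscle, lay at 4.15, 4.21 and 5.83 CPM in healthy and at 25.9, 33.8 and 44 CPM in control EAE libraries. No library of the groups overlapped, and the log2 change was 2.88 ± 0.25 (edgeR adjusted p = 9.09e-08). The annotation places 70 bases of Cox6a2 opposite Itgad, an integrin gene of myeloid cells. Itgad was at 0.108 CPM in healthy and 0.421 CPM in control EAE libraries and was also higher in EAE, by 1.96 (edgeR adjusted p = 0.00396). Its part in the value of Cox6a2 was not tested. Cox4i1, the common form of subunit IV, went from 99.6, 120 and 131 CPM to 209, 239 and 338 CPM (1.10 ± 0.12, edgeR adjusted p = 5.02e-07), with no overlap. It shares 154 annotated bases with the antisense gene Emc8, which rose by 0.38, and whether counting used strand is not given in the sources used here. Among other subunits, Cox5a rose by 1.27, Cox6b1 by 1.02, Cox7b by 1.01, Cox7a2 by 0.997, Cox5b by 0.97, Cox6c by 0.93, Cox8a by 0.85 and Cox6a1 by 0.80. Cox5a overlaps the unnamed antisense gene Gm26631, which rose by 1.59. Cox7a2l, known for joining complexes III and IV into supercomplexes, rose by 0.53. Cox4i2, Cox6b2 and Cox7c did not pass, with 0.59 ± 0.40, -0.27 ± 0.30 and 0.05 ± 0.22. None of the 3 was above 1.67 CPM in any library.

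In complex V, 11 of 13 genes rose, 1 fell and 1 did not pass, with Atp5b and Atp5c1 turning to -0.17 and -0.04 with scaling to library totals alone. Of the genes of the F1 part, Atp5b, the beta subunit, rose least (0.26, groups overlapping), then Atp5c1 (0.39, overlapping), Atp5d (0.56) and Atp5e (0.84). Both overlaps came from control EAE replicate 10 alone, the lowest of its group there at 394 CPM for Atp5b and 61.1 CPM for Atp5c1. In the peripheral stalk, Atp5o, Atp5h and Atp5f1 rose by 0.63, 0.85 and 0.95, and Atp5j was at -0.20 ± 0.13 (edgeR adjusted p = 0.192). Without known strand use, reads of Atp5j cannot be told apart from those of the antisense gene Gabpa over 397 shared bases, and in healthy libraries Gabpa was at 24.4 CPM against 7.33 CPM for Atp5j. Atp5f1 likewise overlaps the antisense gene Wdr77, at 53.1 CPM against 34.3 CPM for Atp5f1 in healthy libraries, and Wdr77 changed by 0.09 in EAE (edgeR adjusted p = 0.306). The small membrane subunits Atp5j2, Atp5k and Atp5mpl rose by 0.91, 1.03 and 1.40. Atp5mpl went from 10.2, 12 and 13.7 CPM to 21.7, 28.3 and 54.5 CPM (edgeR adjusted p = 1.85e-06), without overlap. The genes Atp5g1 and Atp5g3 encode the same mature c subunit of the rotor, and they moved in opposite directions. Atp5g3 rose from 27, 34.6 and 39.5 CPM to 66.7, 81.2 and 156 CPM (1.42 ± 0.18, edgeR adjusted p = 2.14e-06), whereas Atp5g1 fell from 10.8, 12.1 and 13.8 CPM to 6.14, 7.22 and 7.78 CPM (-0.75 ± 0.11, edgeR adjusted p = 6.83e-06). In both genes the groups did not overlap. Atp5s, outside the complex, was at -0.25 ± 0.17 (edgeR adjusted p = 0.212).

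**Figure D2:**
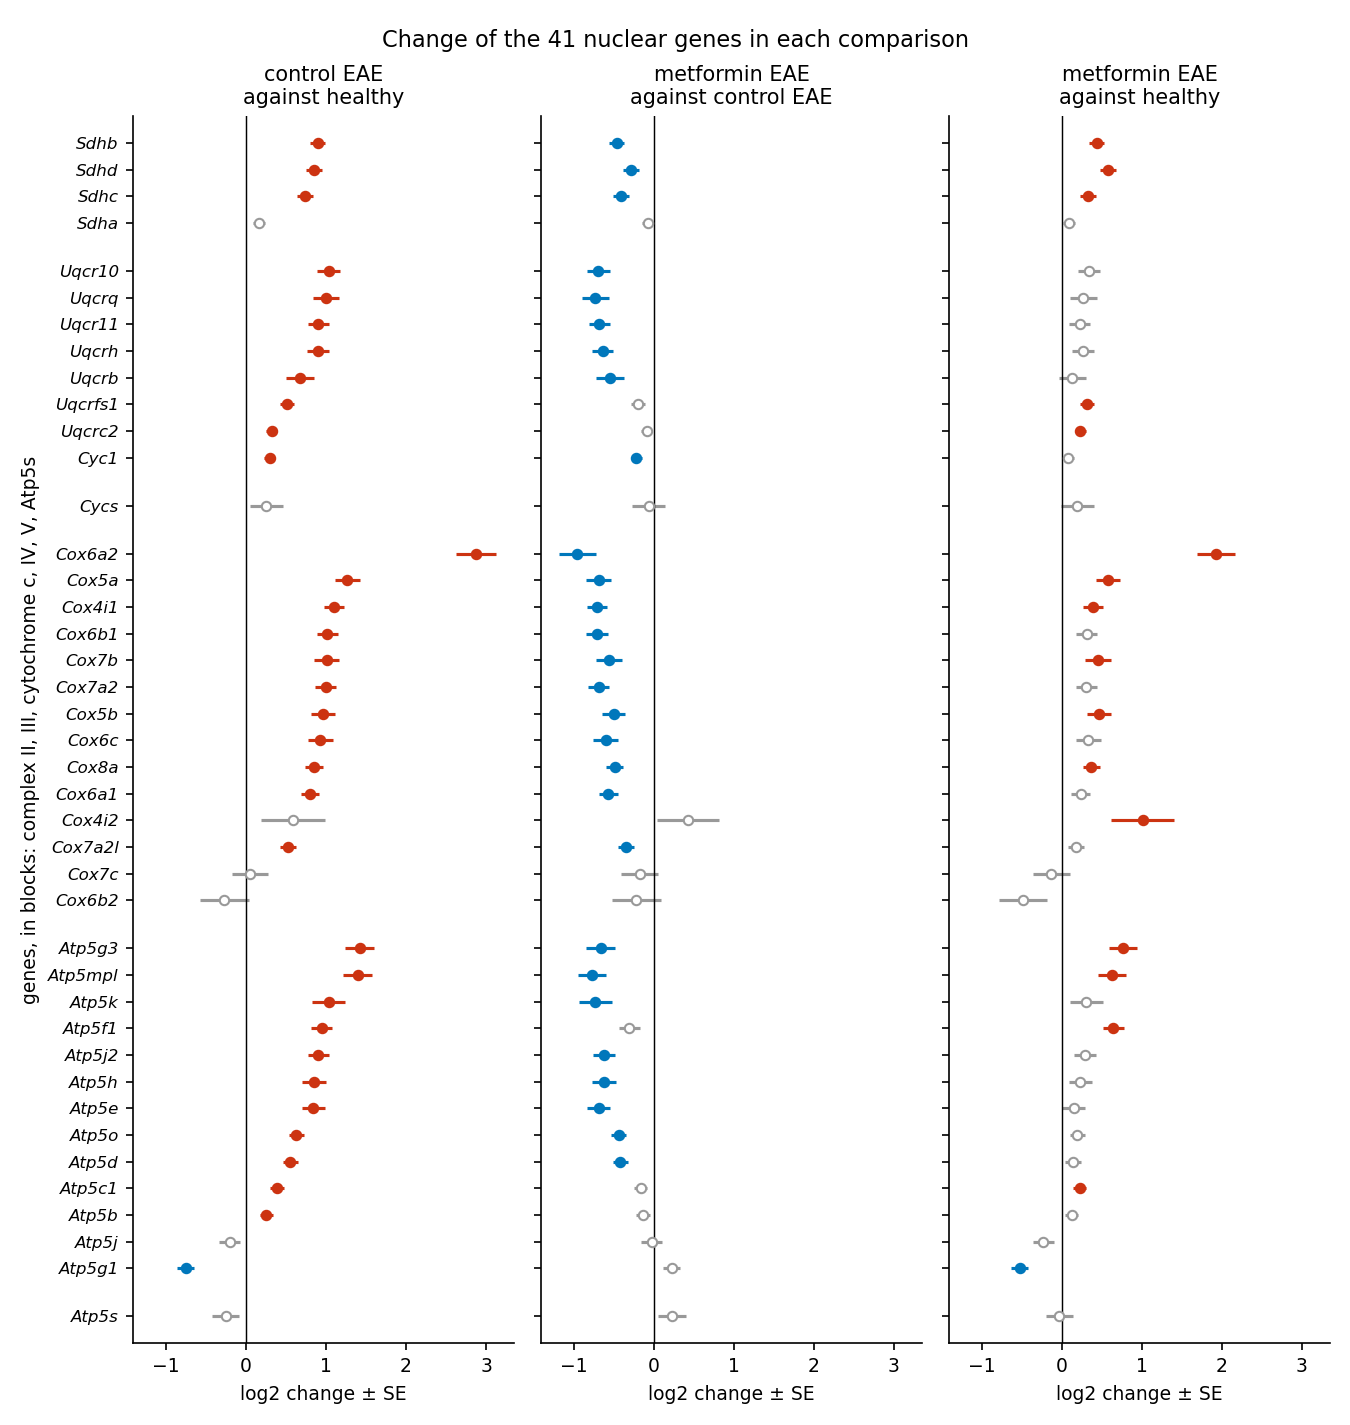
Log2 change ± SE (x axis) of each of the 41 genes (y axis, in blocks for complex II, complex III, cytochrome c, complex IV, complex V and Atp5s) in the 3 comparisons; filled red points are higher and filled blue points lower at edgeR adjusted p under 0.05, and open grey points did not pass. Control EAE against healthy has 33 red and 1 blue point, metformin EAE against control EAE has 28 blue points and no red, and metformin EAE against healthy has 16 red and 1 blue.

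With metformin, most of these genes were lower than in control EAE. None of the 41 was higher (12.5% of all genes tested were), 28 were lower (12.1% of all genes) and 13 did not pass, with a median change of -0.48 against 0.01 over all genes. Without metformin replicate 22 the count lower was 25 and the median -0.42; Sdhd, Cyc1 and Uqcrb no longer passed. With scaling to library totals alone, 13 were lower and 1, Atp5g1, was higher, while all genes had a median of 0.23. This comparison uses the same control EAE libraries as the one with healthy libraries, so the values of both stand side by side and their agreement is no separate result. In 15 genes, every metformin library was below every control EAE library (5.44% of all genes tested), and in none were all above (4.9%). Without replicate 22, the same held for 15 genes below (5.75% of all genes tested) and none above (5.36%).

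In complex II, 3 of 4 genes fell with metformin, or 2 without replicate 22. Sdhb was at 26.3, 33.5 and 35.2 CPM in metformin libraries, all below control EAE (-0.46 ± 0.10, edgeR adjusted p = 0.00303; -0.41 without replicate 22). Sdhc fell by 0.41 and Sdhd by 0.28 (edgeR adjusted p = 0.0459), and Sdha was at -0.07. In complex III, 6 of 8 genes fell, or 4 without replicate 22: the 5 small subunits by 0.55 to 0.73 and Cyc1 by 0.22 (edgeR adjusted p = 0.0352), although Cyc1 stood at 0.01 with scaling to library totals alone. Uqcrc2 and Uqcrfs1 did not pass, at -0.09 and -0.20. Uqcr11 was at 18.7, 22 and 23.7 CPM, below all control EAE libraries (-0.68 ± 0.13, edgeR adjusted p = 0.00218), and Uqcr10 at 39.7, 54.5 and 61.2 CPM, also below all of them (-0.69). Cycs was at 1.88 to 3.08 CPM (-0.06 ± 0.21).

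In complex IV, 11 of 14 genes fell, with or without replicate 22, and the 3 that did not pass were Cox4i2, Cox6b2 and Cox7c. Cox4i1 was at 117, 160 and 173 CPM with metformin, below the lowest control EAE library at 209 CPM (-0.71 ± 0.12, edgeR adjusted p = 0.00138; -0.64 without replicate 22). Cox6a2 fell by 0.96 on the log2 scale (edgeR adjusted p = 0.0072), to 6.14 CPM in replicate 22 and 15.5 to 27.9 CPM in the other 5 libraries, of which replicate 21 lay above the lowest control EAE library. Without replicate 22, its change was -0.78 (edgeR adjusted p = 0.00385). In complex V, 8 of 13 fell, again with or without it. Atp5e was at 24.7, 30.5 and 35.9 CPM (-0.69 ± 0.14, edgeR adjusted p = 0.00304), with its highest library above the lowest control EAE library. Atp5mpl fell by 0.77, Atp5k by 0.73, Atp5g3 by 0.66, and Atp5j2 and Atp5h by 0.62 each. Atp5b, Atp5c1, Atp5f1 and Atp5j did not pass. Atp5g1, the gene that fell in EAE, was at 6.39, 8.35 and 9.66 CPM with metformin (0.22 ± 0.11, edgeR adjusted p = 0.132).

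Against healthy libraries, 16 of the 41 genes were higher in metformin EAE (20.3% of all genes tested were), 1 was lower (16.3%) and 24 did not pass, with a median change of 0.27 against -0.001 over all genes. Without metformin replicate 22 the count higher was 22 and the median 0.33. Without control EAE replicate 10, which enters only through the shared fit, the count higher was 23. With scaling to library totals alone, 4 were higher and 2 lower, and all genes had a median of -0.20. By complex, 3 of 4 genes of complex II were higher, 2 of 8 of complex III, 7 of 14 of complex IV and 4 of 13 of complex V, or 3, 4, 9 and 6 without replicate 22. Cox6a2 was higher by 1.93 ± 0.24 (edgeR adjusted p = 1.4e-05), the largest of the 41, followed by Cox4i2 at 1.01 ± 0.39 (edgeR adjusted p = 0.0487), a gene with 447 counts in all whose call was lost on leaving out any of 15 libraries. Atp5g3 was higher by 0.76, Atp5f1 by 0.64, Atp5mpl by 0.63, Cox5a by 0.58 and Sdhd by 0.57. The single gene that was lower was Atp5g1 (-0.53 ± 0.11, edgeR adjusted p = 0.000783), and its groups did not overlap (6.12% of all genes tested were lower without overlap). Of the genes that were higher, 4 had no overlap (6.82% of all genes tested): Sdhd, Cox5b, Cox6a2 and Atp5mpl. Without replicate 22, 19 of the 22 that were higher had no overlap, and the share over all genes tested was 18.8%.

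Several subunits have alternative genes, and their ratio within a library does not depend on scaling. For 5 pairs with both genes among the 41, log2 ratios of counts were put through 15 exact permutation tests, two-sided, over all assignments of 6 against 6 libraries; the smallest p possible is 0.00216, and p-values were adjusted with Benjamini-Hochberg. Cox6a2 counts were 3.07% of those of Cox6a1 in healthy, 13% in control EAE and 9.12% in metformin libraries. The log2 ratio was 2.08 higher in control EAE than in healthy libraries (adjusted exact permutation p = 0.00464, higher in 6 of 6) and 0.51 lower with metformin than in control EAE (adjusted exact permutation p = 0.0649). Without metformin replicate 21 that last difference was -0.64 (adjusted exact permutation p = 0.0216), and without replicate 22 it was the smallest, at -0.30. Replicate 22 had the lowest log2 ratio of its group, -4.52. The other metformin libraries ran from -3.51 to -2.79 and overlapped control EAE, from -3.21 to -2.60.

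Atp5g1 counts were 35.6% of those of Atp5g3 in healthy, 8.18% in control EAE and 14.7% in metformin libraries. The log2 ratio was 2.12 lower in control EAE than in healthy libraries (adjusted exact permutation p = 0.00464), without overlap, and 0.85 higher with metformin than in control EAE (adjusted exact permutation p = 0.0122), or 0.67 higher without replicate 22 (adjusted exact permutation p = 0.0216). Against healthy it remained 1.28 lower with metformin (adjusted exact permutation p = 0.00464). Cox4i2, the form of subunit IV known from lung and low oxygen, was at 0.18% of Cox4i1 in control EAE and 0.421% in metformin libraries, 1.23 higher in log2 ratio (adjusted exact permutation p = 0.00464) and 1.13 higher without replicate 22, and its difference between control EAE and healthy was -0.40 (adjusted exact permutation p = 0.353). Cox4i2 itself, at a mean of 0.479 CPM in control EAE, did not pass with metformin (0.42 ± 0.39, edgeR adjusted p = 0.447), whereas Cox4i1 fell by 0.71. The ratio of Cox6b2, a testis form, to Cox6b1 was 1.28 lower in control EAE than in healthy libraries. That of Cox7a2l to Cox7a2 was 0.46 lower (adjusted exact permutation p = 0.00464 for both). Cox6b2 itself, at a mean of 0.91 CPM in control EAE, did not pass (-0.27 ± 0.30), whereas Cox6b1 rose by 1.02.

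**Figure D3:**
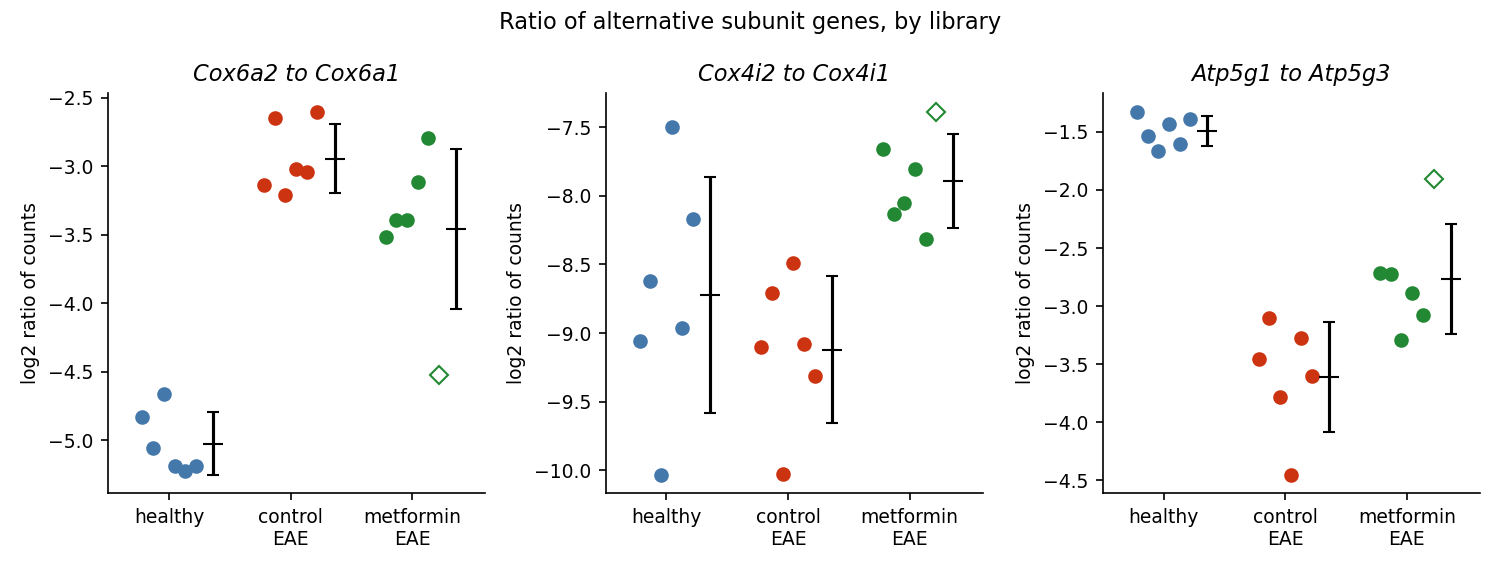
Log2 ratio of counts (y axis, each panel with its own range) of Cox6a2 to Cox6a1, Cox4i2 to Cox4i1 and Atp5g1 to Atp5g3 in each library, by group (x axis); points are libraries, the bar beside them is the mean ± SD of 6 libraries, and the open diamond is the library labelled metformin replicate 22. Control EAE lies apart from healthy for the pairs on the left and right, by 2.08 and -2.12 in the mean, and metformin lies above control EAE for the middle pair, by 1.23.

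Short genes moved with the same signs as these genes. The 41 have a median annotated exon length of 1587 bases, against 4463 over all protein-coding genes tested. Protein-coding genes of up to 1000 bases had a median change of 0.65 in control EAE against healthy (60.2% higher), and those over 4000 bases -0.14 (24.2% higher). In the same bands the 10 and 4 member genes had medians of 0.95 and 0.21. With metformin against control EAE, the bands over all coding genes were at -0.42 and 0.11, and the members at -0.69 and -0.11; without replicate 22 they were at -0.37 and 0.09, and the members at -0.63 and -0.07. Across the 41 genes, the change and log2 length had a Pearson r of -0.42 in EAE and 0.42 with metformin, a description over genes that share their libraries. After removal of a trend with length in each library, 33 genes were higher and 2 lower in control EAE against healthy. With metformin 22 were lower, and 14 were higher in metformin EAE against healthy. The shares of all genes called in this setting are not given here. In EAE, Cyc1 lost its call (0.11, edgeR adjusted p = 0.157) and Sdha gained one (0.18, edgeR adjusted p = 0.0351). Sdhd, Cyc1, Uqcrb, Cox5b, Cox7a2l and Cox7b lost theirs with metformin, and Cox4i2 and Atp5c1 against healthy. The medians of the 41 were then 0.62, -0.33 and 0.20, against 0.02, -0.002 and -0.002 over all genes.

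**Figure D4:**
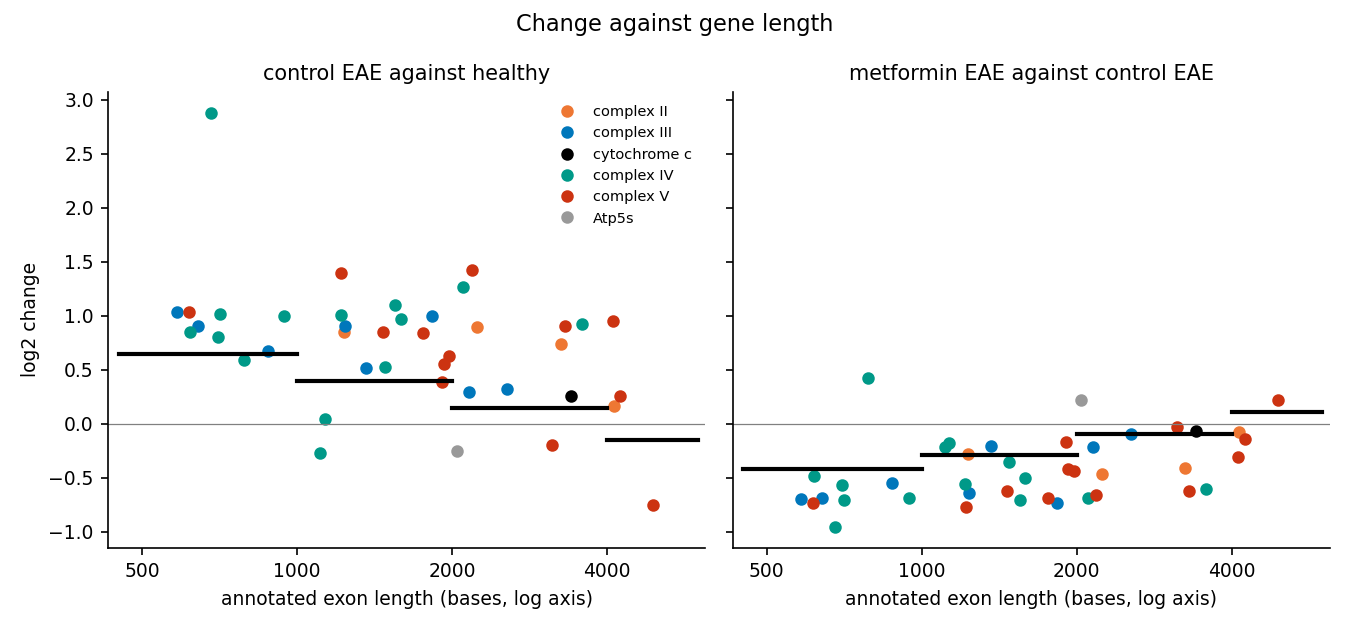
Log2 change (y axis) of each of the 41 genes against its annotated exon length in bases (x axis, log scale), coloured by complex, for control EAE against healthy (left) and metformin EAE against control EAE (right); black bars are the medians of all protein-coding genes tested in 4 length bands, the last of which is drawn to the edge of the panel. The bars run from 0.65 to -0.14 on the left and from -0.42 to 0.11 on the right, and most members lie above them on the left and below them on the right.

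Other measures also moved with the groups. The 10 homeostatic microglial markers fell in control EAE (8 of 9 tested) and rose with metformin (7 of 9, or 6 without replicate 22), and their summed level was 10814 to 11993 CPM in healthy, 3360 to 5413 CPM in control EAE and 5720 to 11426 CPM in metformin libraries. Of the monocyte-derived markers tested, 4 of 6 rose in EAE, and of the border macrophage markers 3 of 4 (0.855 to 4.58 CPM summed in healthy, 52 to 106 CPM in control EAE, 3.57 to 45.2 CPM in metformin libraries). Most of the border macrophage sum in control EAE was Ms4a7, at 45.3 to 82.8 CPM. T cell markers rose in 4 of 4 tested but summed to 6.37 CPM at most, with Cd2 at 0. The neutrophil markers tested both rose, to at most 8.29 CPM summed, with Ly6g at 0. Mural cell and fibroblast markers summed to 16.1 to 86.2 CPM in healthy, 370 to 828.5 CPM in control EAE and 39.1 to 519 CPM in metformin libraries, with 6 of 7 higher and 1 lower in EAE. Of endothelial markers 3 of 6 rose and 2 fell, with Cldn5 at 0 (33.7 to 47.6, 59.2 to 142 and 25.8 to 108 CPM summed), and of B and plasma cell markers 1 rose and 1 fell of 2 (14.6 to 17.3, 8.01 to 22.3 and 10.2 to 21.1 CPM). Neuronal markers fell in 10 of 10 (556 to 768 CPM summed in healthy, 230 to 392 in control EAE, 298 to 805 in metformin), oligodendrocyte markers in 7 of 9 (3432 to 3913, 2734 to 3461 and 2658 to 3244 CPM) and astrocyte markers in 5 of 8, with 2 higher (612 to 675, 498 to 560 and 484 to 736 CPM). Among metformin libraries, replicate 22 had the highest homeostatic, neuronal, oligodendrocyte and astrocyte sums. It also had the lowest border macrophage, endothelial, and mural cell and fibroblast sums. The part of these cells in the change of the respiratory genes was not tested.

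Titles carry numbers in 3 ranges, 1 to 6, 9 to 14 and 17 to 22, each with 2 libraries of every group, and the labels do not say what the ranges are. Within them, 38, 38 and 36 of the 41 genes had a higher mean in control EAE than in healthy libraries, and in each range 37 had a lower mean with metformin than in control EAE. The median difference within a range was 0.53 to 0.97 for EAE and -0.54 to -0.35 for metformin. In the range 17 to 22, replicate 22 is 1 of the 2 metformin libraries, and these values include it. Near-identical stretches of at least 100 bases are shared with other genes by 14 of the 41, most of all by Atp5o (92% of its transcript), Atp5h (71.1%), Atp5f1 (64.6%) and Uqcrb (62.8%), whose values are uncertain if counting split such reads. Of the 27 that share none, 23 rose in control EAE and 20 fell with metformin (18 without replicate 22).

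The other genes of the pathway are given by list, and each count is to be read against the shares of all genes tested, 31.7% higher and 30.7% lower in EAE and 12.5% higher and 12.1% lower with metformin (8.5% and 9.84% without replicate 22). Of 25 tested assembly factors of complex IV, 18 rose in control EAE and 1 fell, and 10 fell with metformin against control EAE (8 without replicate 22). Cmc1, which takes part in the assembly of Cox1, rose by 1.38 and fell by 0.54 with metformin, and Cox17, a copper chaperone, rose by 0.74 and fell by 0.65. Higd1a, a respiratory factor known to be induced by low oxygen, fell by 0.61 in EAE. Complex II assembly factors rose in 3 of 4 and fell with metformin in 2, complex III factors rose in 2 of 6 and fell in 1 (Lyrm7, -0.87), and with metformin 2 fell; the 2 of 6 that rose are a share near that of all genes. Of 6 assembly factors and inhibitors of complex V, 4 rose in EAE and 4 fell with metformin (3 without replicate 22). Among them Atpif1, which blocks ATP hydrolysis by complex V, rose by 0.89 and fell by 0.53, while the assembly factor Atpaf1 fell by 0.24 in EAE. Hccs, which attaches haem to cytochrome c, was at -0.32 in EAE (edgeR adjusted p = 0.0589) and rose by 0.43 with metformin, or was at 0.44 without replicate 22 (edgeR adjusted p = 0.0502).

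Of 13 enzymes of the tricarboxylic acid cycle, which includes complex II, 9 rose in EAE, with a median of 0.25, the largest being Dld at 0.93, and with metformin 1, Mdh2, fell (-0.36), a share below that of all genes. Of 7 carriers and porins, 6 rose in EAE and 3 fell with metformin (2 without replicate 22). Ucp2, an inner-membrane carrier abundant in myeloid cells, rose by 1.34 and fell by 0.69, and Slc25a3, which imports phosphate for ATP synthesis, rose by 0.86 and fell by 0.37. Of 12 nuclear regulators of respiratory genes, 2 rose in EAE (Ppargc1b by 0.95 and Esrra by 0.32) and 5 fell (Polrmt, Tfb2m, Pprc1, Gabpb1 and Nrf1, by 0.31 to 0.78), the first a share below and the second a share above those of all genes, and Ppargc1a was at -0.35 (edgeR adjusted p = 0.334). With metformin, Gabpa, Yy1 and Gabpb1 rose by 0.42, 0.43 and 0.28, and Esrra fell by 0.39; without replicate 22, Gabpb1 was at 0.27 and no longer passed (edgeR adjusted p = 0.063).

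The mitochondrially encoded partners mt-Cytb (complex III) and mt-Co1 (complex IV) went the other way, from 747 ± 330 and 1116 ± 383 CPM in healthy to 207 ± 52.1 and 413 ± 134 CPM in control EAE libraries. Healthy replicates 3 and 4 stood apart, at 356 and 308 CPM for mt-Cytb and 651 and 599 CPM for mt-Co1. The other healthy libraries were at 845 to 1033 CPM and 1296 to 1420 CPM. Control EAE replicate 17, at 599 CPM for mt-Co1, was level with healthy replicate 4. With metformin mt-Cytb and mt-Co1 were at 1361 and 1761 CPM in replicate 22, and at 241 to 423 CPM and 592 to 836 CPM in the other 5 libraries. Their log2 changes in EAE were -1.85 ± 0.43 and -1.43 ± 0.31 (edgeR adjusted p = 0.00122 and 0.000567); against control EAE they were higher with metformin by 1.27 ± 0.42 and 1.07 ± 0.30 (edgeR adjusted p = 0.0358 and 0.017). Without replicate 22 those values were 0.67 ± 0.30, which no longer passed (edgeR adjusted p = 0.135), and 0.74 ± 0.25 (edgeR adjusted p = 0.0478). The genes mt-Co2, mt-Co3, mt-Atp6 and mt-Atp8 were listed at 0.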

How the data were processed

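Counts per gene were deposited by the authors as whole numbers for 39017 genes in 18 libraries of mouse spinal cord microglia RNA. Per the labels' protocols, RNA came from a Direct-zol kit and was enriched for mRNA in a KAPA Stranded library kit. Per the submitters' processing notes, bcl2fastq 2.17, FastQC, Trimmomatic and mm10 were used. The annotation, the aligner and the counting tool, with its use of strand, were not given in the sources used here. Symbols, positions and exon lengths (all exons of a gene merged) came from GENCODE M21 (GRCm38, the assembly of mm10) and matched 37693 genes.

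The members and lists were chosen with earlier results of these data known. Genes passed filterByExpr (minimum count 10, minimum total 15), all 41 members among the 16740 kept, and 1 edgeR 4.0.16 quasi-likelihood fit (R 4.3.3, TMM scaling, 18 libraries, group means, no covariate) gave each comparison, at a Benjamini-Hochberg adjusted p under 0.05 over all genes. The fit was tested on simulated data. Named in full were, per complex, the 2 genes with the smallest p in EAE and the 1 with the smallest p with metformin, genes called against the majority, and alternative subunit genes; ratios used a pseudocount of 0.5 counts. Shared stretches of at least 100 bases at 97% identity were sought with BLAST+ 2.17.0. Alternatives were DESeq2 1.42.0 and its size factors, library totals, other filters, removal of a length trend, other samples or a covariate, and leaving out libraries. Reads carry no molecular identifiers, so the 46.2 to 58.3 M counts (M, mega) per library include PCR copies and their precision covers counting error only.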

Additional observations from a re-analysis of the deposited data

Results flagged for a closer look

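Of 138 groups of 6 libraries tested for a value far from the others, 23 held one, where chance gives about 1 in 20, or 6.9. The 23 fall on 5 libraries, and genes within a library are not independent.

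Control EAE replicate 10 was far above the other control EAE libraries for 10 measures: Uqcrb (11.4 CPM), Uqcrq (209.6 CPM, next 117.5), Cox5a (68.2 CPM), Cox7b (86.6 CPM), Atp5f1 (96.6 CPM), Atp5g3 (156 CPM, next 84.8), Atp5h (83.8 CPM), Atp5k (14.2 CPM), Atp5mpl (54.5 CPM) and the sum of complex III (809 CPM, next 614). Its median difference from the healthy mean over the 41 genes was 1.17 on the log2 scale, against 0.47 to 0.87 in the other control EAE libraries. Without it, 33 genes were higher in control EAE against healthy (median 0.72), 27 were lower with metformin (median -0.41) and 23 were higher in metformin EAE against healthy. Control EAE replicate 10 enters the last of these comparisons only through the shared fit.

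The library labelled metformin replicate 22 was far below its group for Sdhb (26.3 CPM), Atp5c1 (60.8 CPM), Atp5f1 (37 CPM) and the sum of complex II (415 CPM, next 522). Its median difference from the healthy mean was 0.008 on the log2 scale.

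Healthy replicate 3 was far below its group for Uqcr11 (14.6 CPM), Cox7a2 (16.8 CPM), Cox7b (21.2 CPM), Cox8a (147 CPM), Atp5e (20.5 CPM) and Atp5h (22.4 CPM). Healthy replicate 4 was far above it for Uqcrfs1 (89.4 CPM) and Atp5c1 (66.6 CPM), and healthy replicate 12 far below for Cyc1 (41.8 CPM). Healthy replicates 3 and 4 also had 0.236% and 0.238% of counts from mitochondrial genes, against 0.643% to 0.714% in the other healthy libraries. Without both, 34 genes were higher in control EAE against healthy and 27 were lower with metformin. What sets these libraries apart was not tested.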

How the results depend on the processing

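Scaling to library totals alone moved most. It gave 24 higher and 5 lower in control EAE against healthy, 1 higher and 13 lower with metformin against control EAE, and 4 higher and 2 lower in metformin EAE against healthy. It turned the sign in EAE of Sdha (-0.254), Cyc1 (-0.126), Uqcrc2 (-0.098), Atp5b (-0.169) and Atp5c1 (-0.041), and with metformin of Cyc1 (0.008). Removing the length trend gave 2 lower in EAE, Atp5s (-0.44, edgeR adjusted p = 0.035) besides Atp5g1. The cause was not tested. Under DESeq2, its size factors and the other alternatives run, all 6 counts of calls stayed within 1.5 times those reported.

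Leaving out 1 library at a time gave 33 to 34 higher and 1 lower in EAE, 0 to 1 higher (Atp5g1 at 0.29 without metformin replicate 13, edgeR adjusted p = 0.0437) and 25 to 28 lower with metformin, and 12 to 23 higher (12 without metformin replicate 21) and 1 lower in metformin EAE against healthy. The ratio of Cox6b2 to Cox6b1 in metformin EAE against healthy (-0.87, adjusted exact permutation p = 0.0289) ranged from -1.04 to -0.64 and no longer passed (adjusted exact permutation p = 0.0577) without healthy replicate 4, 11 or 20 or metformin replicate 6 or 14. That of Cox4i2 to Cox4i1 there (0.83, adjusted exact permutation p = 0.0649) ranged from 0.57 to 1.08 and passed without healthy replicate 12 (adjusted exact permutation p = 0.0144). With metformin against control EAE, Cox6a2 to Cox6a1 ranged from -0.64 to -0.30 and Cox7a2l to Cox7a2 from 0.23 to 0.38, passing without metformin replicate 21 (adjusted exact permutation p = 0.0216 and 0.026). Sdhd with metformin lost its call without any of 13 libraries, and Cyc1 without any of 7.

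No paired analysis was possible because the groups share no replicate numbers. A fit with the range of the title number as a covariate, which pairs no single libraries, gave 34 higher and 1 lower in EAE, 28 lower with metformin, and 18 higher and 1 lower in metformin EAE against healthy. Genes under about 1 CPM, such as Cox4i2, rest on few counts, so differences in them were not detectable unless large.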
